A study of Mus musculus with 10 samples.

Results

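The chromatin regions described here were the ATAC-seq peaks that were less accessible in Vps34-deficient regulatory T cells (Tregs) than in control Tregs of both the spleen and the lung. They were selected on the measured counts themselves. In each library the count of a peak was divided by the library total and expressed as CPM, the usual scaling to a fixed library total, and a peak on chromosomes 1 to 19 was kept when, in spleen and lung alike, every Vps34-deficient library was below every control library, the control mean was at least 2 times the deficient mean, and the control mean was at least 3 CPM. Of 94486 peaks on these chromosomes (97385 in all), 595 met the rule, which is 0.63%. Every value of a deficient library against a control library of the same tissue is therefore a description of the choice, with no test.

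Vps34, encoded by Pik3c3, is the class III phosphatidylinositol 3-kinase, which makes the lipid that marks endosomes and autophagosomes and acts in complexes with Beclin 1, Atg14 or Uvrag. Tregs restrain immune responses, and those that settle in tissues such as the lung pass through an effector state towards a terminal state marked by the receptors KLRG1 and ST2 (encoded by Il1rl1). ATAC-seq uses a transposase that inserts sequencing adaptors where DNA is accessible, so the number of reads in a peak follows how often that site was open in the sorted cells. Regulatory sites of immune genes often lie in introns or between genes, where factors such as AP-1 (dimers of Jun, Fos or Batf proteins) and RUNX proteins bind.

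All libraries came from CD4+Foxp3-YFP+TCRb+ Tregs sorted from 10-day-old mice that carried the Foxp3Cre allele, which expresses a YFP-Cre fusion from Foxp3, so deletion was driven in Foxp3-expressing cells and control cells carried Cre as well. Control mice were Foxp3CrePik3c3 +/+ or +/fl, so that they kept at least 1 intact copy of Pik3c3, and deficient mice were Foxp3CrePik3c3 fl/fl, which leaves the gene only in cells that have not recombined it. The labels gave 2 spleen control, 4 spleen Vps34-deficient, 2 lung control and 2 lung Vps34-deficient libraries. In the methods of the study the spleen numbers are reversed, with more control than deficient samples, and here the labels decided. Nothing in the labels says which control genotype a library had, whether animals were pooled or whether libraries came from separate mice, so the tests measure the spread between these libraries. Total counts in peaks ran from 9405823 to 22439699 per library. In sorted bulk cells, fewer cells in which a site is open and lower accessibility in each cell cannot be told apart.

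To show what these regions look like, the central 200 bases of 8 named peaks with an AP-1 match are given 5′ to 3′ on the plus strand of GRCm38 (RefSeq sequence). They were chosen because AP-1 was the motif whose share differed by the most percentage points from that of all peaks (the T-box, CRE and CTCF motifs differed more as a ratio). They were also chosen from the peaks with the highest control-to-deficient ratios (Cnnm2), the highest levels (Pth) or the stretches with the most members (Il10, Rassf6). The rest had the clearest difference between tissues (Hmgb1) or lay just inside the threshold (Maf). Capitals mark the AP-1 match, spelled TGANTCA, which reads as the same motif on both strands.
Intron of Cnnm2, chr19:46863597-46863796: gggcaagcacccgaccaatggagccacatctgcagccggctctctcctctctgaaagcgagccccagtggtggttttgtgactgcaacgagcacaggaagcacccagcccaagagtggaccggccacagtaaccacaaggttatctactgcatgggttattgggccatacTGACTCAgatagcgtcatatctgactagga
Upstream of Il10, chr1:131000498-131000697: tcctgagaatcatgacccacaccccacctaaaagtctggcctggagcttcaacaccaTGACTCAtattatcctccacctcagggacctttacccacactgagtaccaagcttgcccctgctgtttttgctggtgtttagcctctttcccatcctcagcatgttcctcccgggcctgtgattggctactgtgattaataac
Intron of Il10, chr1:131021566-131021765: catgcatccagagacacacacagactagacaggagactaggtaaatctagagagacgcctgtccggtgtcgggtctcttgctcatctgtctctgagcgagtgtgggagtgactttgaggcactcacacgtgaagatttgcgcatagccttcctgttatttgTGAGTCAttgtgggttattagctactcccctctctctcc
Downstream of Il10, chr1:131025976-131026175: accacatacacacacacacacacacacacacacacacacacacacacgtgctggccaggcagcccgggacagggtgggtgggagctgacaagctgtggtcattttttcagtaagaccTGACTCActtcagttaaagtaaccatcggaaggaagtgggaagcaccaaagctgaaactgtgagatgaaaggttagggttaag
Intron of Rassf6, chr5:90612209-90612408: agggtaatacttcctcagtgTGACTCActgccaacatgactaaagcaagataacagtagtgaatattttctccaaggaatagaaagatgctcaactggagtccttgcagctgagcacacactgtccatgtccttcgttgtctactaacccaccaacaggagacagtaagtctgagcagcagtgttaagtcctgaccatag
Intron of Hmgb1, chr5:149160616-149160815: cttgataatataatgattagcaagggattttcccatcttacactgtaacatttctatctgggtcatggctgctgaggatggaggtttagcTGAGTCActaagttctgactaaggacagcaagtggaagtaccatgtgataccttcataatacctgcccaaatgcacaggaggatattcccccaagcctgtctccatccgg
Intergenic, nearest start Pth, chr7:113419424-113419623: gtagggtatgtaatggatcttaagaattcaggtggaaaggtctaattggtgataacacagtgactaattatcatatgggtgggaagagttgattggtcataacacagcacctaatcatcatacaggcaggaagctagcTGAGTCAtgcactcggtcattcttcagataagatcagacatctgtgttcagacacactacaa
Intergenic, nearest start Maf, chr8:115742764-115742963: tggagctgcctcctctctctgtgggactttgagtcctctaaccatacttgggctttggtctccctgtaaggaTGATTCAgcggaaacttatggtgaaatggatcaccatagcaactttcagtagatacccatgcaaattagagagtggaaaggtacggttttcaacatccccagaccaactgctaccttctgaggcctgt
Each of the 8 windows held 1 AP-1 match, in the order given above starting at base 171, 58, 162, 118, 21, 91, 139 and 73 of the window.

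A second set holds peaks without the AP-1 motif in the central 200 bases but with the RUNX motif, spelled TGTGGTT and searched on both strands, at the immune receptor genes Tigit and Il1rl1 and at Galnt2, the peak with the highest control level. Capitals mark the RUNX match, which reads AACCACA where it lies on the minus strand.
Intron of Tigit, chr16:43661617-43661816: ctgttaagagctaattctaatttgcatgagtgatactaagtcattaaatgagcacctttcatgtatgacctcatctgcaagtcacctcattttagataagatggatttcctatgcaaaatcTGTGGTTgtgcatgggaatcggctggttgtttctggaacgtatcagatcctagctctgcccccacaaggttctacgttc
Near Il1rl1, chr1:40427379-40427578: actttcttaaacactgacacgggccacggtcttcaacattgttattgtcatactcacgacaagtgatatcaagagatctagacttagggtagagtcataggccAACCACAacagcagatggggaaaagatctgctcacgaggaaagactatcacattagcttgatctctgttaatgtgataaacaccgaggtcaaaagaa
Intron of Galnt2, chr8:124242318-124242517: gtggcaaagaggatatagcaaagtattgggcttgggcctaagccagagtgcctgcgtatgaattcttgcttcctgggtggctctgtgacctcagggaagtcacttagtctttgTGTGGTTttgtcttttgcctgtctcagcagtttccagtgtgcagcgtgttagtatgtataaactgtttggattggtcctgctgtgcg
RUNX was 1 of several motifs found in these windows, all 3 of which also held the nuclear receptor element described below, and no match was taken as a bound site.

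The summed CPM of the 595 peaks was 4308 and 4532 in the spleen control libraries, and 1698, 1636, 1539 and 1713 in the spleen deficient libraries. It was 6142 and 7699 in the lung control libraries, and 1807 and 2105 in the lung deficient libraries. The control libraries of the lung were the highest of the 4 groups, and the deficient libraries of both tissues were the lowest, from 1539 to 2105. As group means this was 4420 ± 158 (SD, n = 2) in spleen controls, 1646 ± 79.0 (SD, n = 4) in spleen deficient, 6920 ± 1101 (SD, n = 2) in lung controls and 1956 ± 211 (SD, n = 2) in lung deficient libraries. The 595 peaks held from 0.154% to 0.770% of a library's counts. The median peak stood at 5.35 and 5.51 CPM in spleen controls against 1.90 to 2.15 in spleen deficient libraries, and at 7.66 and 9.88 in lung controls against 2.27 and 2.54 in lung deficient libraries. By comparison, the median over all 43602 peaks that reach the control level of the rule stayed between 9.74 and 10.4 CPM in all 10 libraries. All 595 peaks passed the filter on low counts.

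**Figure D1:**
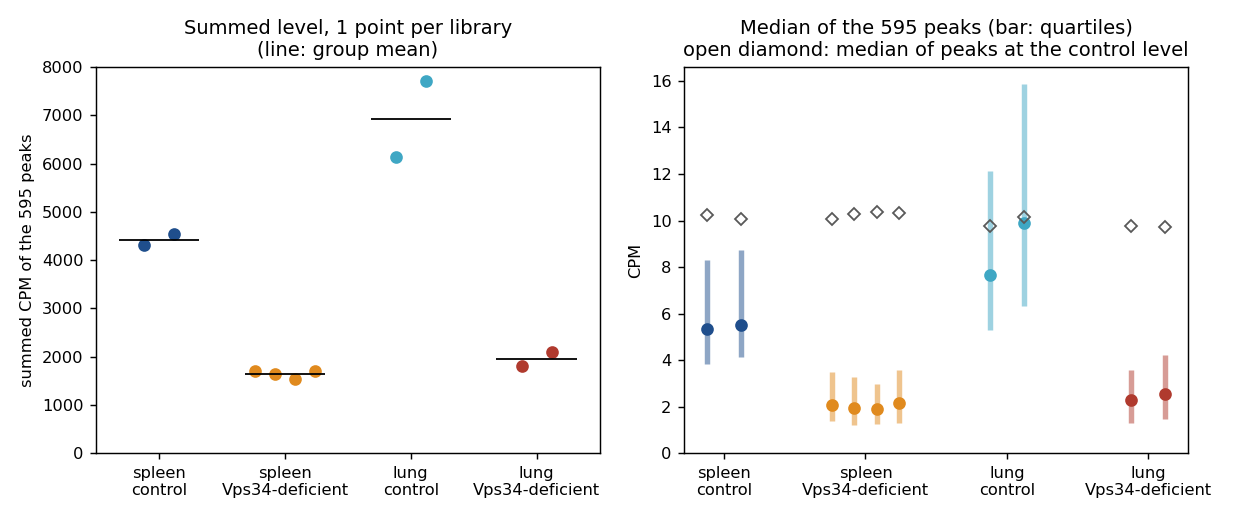
Left, the summed CPM of the 595 peaks in each library (y axis from 0), 1 point per library with a line at the group mean. Right, the median CPM of the 595 peaks in each library (points) with the quartiles (bars) and, as open diamonds, the median of all peaks at the control level of the rule. The lung controls sum to 6142 and 7699, while the 6 deficient libraries sum to between 1539 and 2105.

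The choice fixed the direction of the difference between genotypes and its smallest size, a ratio of 2, so the ratios describe the chosen peaks alone. The control mean was a median of 2.62 times the deficient mean in the spleen (from 2.00 to 12.0 times) and a median of 3.50 times in the lung (from 2.00 to 21.9 times). It was at least 4 times at 89 peaks in the spleen, at 226 in the lung and at 64 in both. The ratio was larger in the lung at 461 peaks and larger in the spleen at 134. In the fit over all 10 libraries, edgeR called 503 of the 595 lower in the spleen (1.02% of all peaks tested were called lower) and 547 lower in the lung (3.74% of all peaks tested). Both counts use the contrasts that chose the peaks and are given as a description.

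Close to the threshold, the peak nearest Maf, a transcription factor gene of effector T cells, was the last one inside (chr8:115742630-115743096), with a lower ratio of 2.0001. The next, with 2.0006, lay 398642 bases from Sall3. Just outside were a peak near Vcpkmt with 1.9991 and one near Numa1 with 1.9988, and 157 of the members had a lower ratio under 2.2. The edge of the set is thus a matter of the rule. Another 3662 peaks failed only the ratio, 824 failed only the level, and 5 met ratio and level in both tissues but had overlapping libraries.

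Whether the same peaks were lower in both tissues was asked by choosing in 1 tissue and testing in the other, since each arm of the rule uses only its own tissue. The spleen arm of the rule held 717 peaks (0.759% of peaks on chromosomes 1 to 19) and the lung arm 3061 (3.24%). The 595 shared peaks made up 83.0% of the spleen arm and 19.4% of the lung arm. Of the 717 peaks chosen in the spleen, 713 could be tested in the 4 lung libraries alone, and edgeR's quasi-likelihood test called 450 of these lower in Vps34-deficient lung Tregs (63.1%), against 1.86% of all peaks tested. Their log2 fold change in the lung was negative at 705 and positive at 8, with a median of −1.73 against 0.018 over all peaks tested. Leaving out lung Vps34-deficient replicate 1 gave 70 such calls (9.79%, with 99 calls among all peaks, 0.107%) and leaving out replicate 2 gave 1, the only such call among all peaks, where the lone deficient library is assumed to vary like the controls, so the number of calls rests on having both deficient lung libraries.

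In the other direction, 3028 of the 3061 peaks chosen in the lung could be tested in the 6 spleen libraries alone, and 1018 were called lower in Vps34-deficient spleen Tregs (33.6%), against 1.9% of all peaks tested. Here 2785 had a negative log2 fold change and 243 a positive one, with a median of −0.69 against 0.015 over all peaks tested. Without spleen control replicate 1 the count was 547 of 3043 tested, against 0.813% of all peaks tested, and without spleen control replicate 2 it was 530 (17.4% against 0.794%). If same-numbered spleen and lung libraries came from the same mice, which the labels do not say, the tissues are not separate samples. In both directions the share called was many times that of all peaks. Which direction had the larger share turned on single libraries, since the share of spleen-chosen peaks, 63.1% with all lung libraries, fell to 9.79% or 0.14% when the first or the second lung Vps34-deficient library was left out.

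The deepest losses were found at 6 peaks named for the highest mean ratio of control to deficient levels. In an intron of Ctsh (chr9:90070955-90071379), which encodes the lysosomal protease cathepsin H, accessibility was 3.83 and 4.13 CPM in spleen controls and 0.139 to 0.489 in spleen deficient libraries. In the lung it was 9.57 and 18.9 CPM in controls against 0.487 and 1.06. The site was at or under 1.06 CPM in every deficient library of either tissue, with control means 12.0 and 18.4 times higher. An intron of Cnnm2 (chr19:46863466-46863927), a gene of magnesium transport, stood at 4.81 and 5.65 CPM in spleen controls and 12.8 and 18.3 in lung controls, against 0.278 to 0.856 in spleen and 0.635 and 1.30 in lung deficient libraries. This is the first sequence printed above, with an AP-1 match towards its 3′ end. The intergenic peak near Glrx (chr13:75852089-75852572), which encodes the thiol enzyme glutaredoxin, had 5.62 and 3.58 CPM in spleen controls and 0.245 to 0.632 in spleen deficient libraries, and 10.6 and 15.1 against 1.30 and 1.69 in the lung.

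The remaining 3 of this group lay in an intron of Atxn1, in an intron of Arnt2 (a basic helix-loop-helix transcription factor gene) and 3132 bases from the start of Ky, a gene known from muscle. At Atxn1 (chr13:45917221-45917691) the spleen held the larger ratio, 11.1 against 7.33 in the lung. At Arnt2 (chr7:84386453-84387130) it was the lung, with 12.5 against 4.87. The peak near Ky (chr9:102502059-102502618) rose from 3.65 and 5.37 CPM in spleen controls to 21.3 and 28.2 in lung controls, and stood at 0.278 to 0.856 in spleen and 1.30 and 3.60 in lung deficient libraries. A second member lay at the start of Ky itself, with 12.2 and 15.9 CPM in lung controls and at most 1.79 in every deficient library.

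The 5 peaks with the highest control level kept clear accessibility without Vps34. An intron of Galnt2 (chr8:124242117-124242717), which encodes an enzyme that starts O-linked glycosylation, had 40.7 and 46.9 CPM in spleen controls and 55.7 and 75.1 in lung controls, against 16.4 to 23.7 and 25.6 and 26.1 in the deficient libraries. Ratios in this group ran from 2.13 to 3.00 in the spleen and from 2.24 to 4.23 in the lung. The other members were an intron of Rbms3, an intergenic peak upstream of Il10, an intergenic peak 30644 bases from Pth and an intron of Atg10, a gene of autophagosome formation. At high levels the difference was thus nearer to the threshold than at the peaks named for their high ratios, where by that choice the loss had to be deeper.

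**Figure D2:**
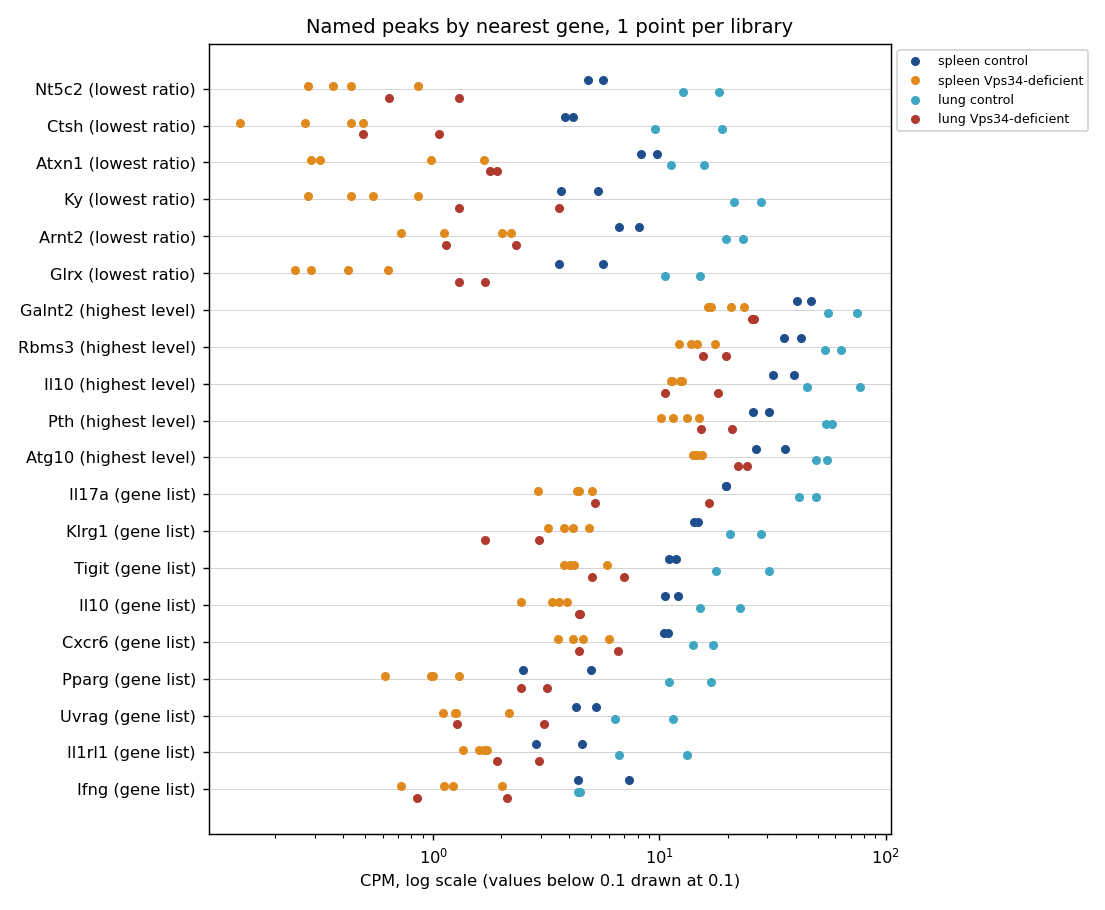
CPM (x axis, log scale) of the 20 peaks named for the highest control-to-deficient ratio, the highest control level or a gene of the lists. Each row is labelled with the nearest gene and has 1 point per library. The row label lowest ratio means deficient over control. In each row the deficient libraries lie to the left of the controls of the same tissue, as the rule requires, and at Ky the lung controls (21.3 and 28.2) stand far to the right of the spleen controls (3.65 and 5.37).

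Among genes with known roles in Tregs, members were found at terminal and tissue effector genes and at cytokine genes. A peak was assigned to a gene when it overlapped the gene body or its flanks of 10 kb. Of 305 peaks at 32 terminal and tissue effector Treg genes, 9 were members (2.95%), at 6 of the genes. These were Klrg1 (2 of 8 peaks), Pparg (2 of 7), Il10 (2 of 4), Il1rl1 (1 of 9), Cxcr6 (1 of 4) and Tigit (1 of 6). Of 43 peaks at 12 effector cytokine genes, 4 were members (9.30%), with 2 at Il10, 1 at Il17a and 1 at Ifng. None of the 404 peaks at 15 genes of resting and central Tregs was a member. Nor was any of 200 at Treg identity genes, 144 at AP-1 family genes or 105 at NF-kB family genes. Peaks at Foxp3 and at the chemokine receptor gene Cxcr3 were not counted, as both genes lie on chromosome X, outside the rule. At 8 genes of the Vps34 complex 1 of 60 peaks was a member, in Uvrag, and at chemokine receptor genes 1 of 100, the one at Cxcr6. Members beyond the flanks of 10 kb were not counted, such as 2 with Ikzf2, a Treg identity gene, as the nearest gene. Icos and Rbpj, effector genes without a counted member, were each the nearest gene of 2 members. Over all peaks the share was 0.63%, as given above, and since the lists were chosen with results of these data known, the shares are counts and not tests.

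At Klrg1, which encodes the inhibitory receptor that marks terminal effector Tregs, the member with the highest control level lay 19760 bases from the start (chr6:122262463-122263122). It had 14.2 and 14.7 CPM in spleen controls and 3.20 to 4.89 in spleen deficient libraries. In the lung it had 20.4 and 28.2 CPM in controls and 2.92 and 1.69 in deficient libraries, so that the lung ratio, 10.5, was well above that of the spleen, 3.60. Both deficient lung libraries were also below every deficient spleen library.

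Il1rl1, which encodes the ST2 chain of the interleukin 33 receptor, had its member 1911 bases from the start (chr1:40427298-40427659). It was at 2.85 and 4.55 CPM in spleen controls and 1.35 to 1.72 in spleen deficient libraries, and at 6.59 and 13.2 against 2.92 and 1.91 in the lung. Levels here were low, and the spleen control 1 library stood only a little above the deficient ones. Pparg, the nuclear receptor gene known from Tregs of adipose tissue, held an intronic member (chr6:115440368-115441097) with 2.50 and 4.96 CPM in spleen controls, 0.612 to 1.29 in spleen deficient, 11.1 and 16.9 in lung controls and 2.44 and 3.17 in lung deficient libraries. The deficient lung libraries reached about the level of spleen control 1 at this site.

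Tigit, which encodes a coinhibitory receptor, held an intronic member (chr16:43661505-43661928) with 11.1 and 11.8 CPM in spleen controls, 3.79 to 5.89 in spleen deficient, 17.8 and 30.5 in lung controls and 5.04 and 6.99 in lung deficient libraries. The peak assigned to the chemokine receptor gene Cxcr6 lay in an intron of Fyco1, an overlapping gene of autophagosome transport (chr9:123814252-123814858), so that the files cannot say which gene it serves. It had 10.5 and 10.9 CPM in spleen controls against 3.55 to 5.98, and 14.0 and 17.2 in lung controls against 4.39 and 6.56. Ratios at these sites ran from 2.34 to 4.01.

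The cytokine genes with a member were Il10, Il17a and Ifng. The intergenic peak assigned to Il17a (chr1:20743771-20744345), which encodes a cytokine of inflammatory helper T cells, stood at 19.7 CPM in both spleen controls and at 2.89 to 5.01 in spleen deficient libraries. In the lung it stood at 41.2 and 49.5 CPM in controls and at 5.20 and 16.5 in deficient libraries. The last pair differed more than 3-fold between replicates, while both stayed below the spleen controls. The member at Ifng, the interferon gamma gene (chr10:118440731-118441098), overlapped the start of the gene and had 4.37 and 7.30 CPM in spleen controls against 0.722 to 2.01, and 4.46 and 4.38 in lung controls against 2.11 and 0.847. In Uvrag, which encodes a subunit of a Vps34 complex, the intronic member (chr7:99049867-99050300) had 5.26 and 4.27 CPM in spleen controls, 1.10 to 2.15 in spleen deficient, 6.38 and 11.4 in lung controls and 3.09 and 1.27 in lung deficient libraries.

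Members clustered along the chromosomes. Another member lay within 50 kb of 151 of the 595 (25.4%), while a member lay that close to 4.96% of the other peaks, and these are descriptions without a test. Joining members less than 50 kb apart gave 66 stretches of 2 or more members and 16 of 3 or more. Every autosome held members, from 0.343% of the peaks on chromosome 17 to 0.838% on chromosome 1.

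The stretch with the most members lay at Il10, the gene of the anti-inflammatory cytokine interleukin 10, on chromosome 1 from 130987440 to 131026239, where 5 of 11 peaks in 38.8 kb were members. Upstream of the gene, the intergenic member with the highest level (chr1:131002986-131003793) had 31.7 and 39.3 CPM in spleen controls, 11.2 to 12.5 in spleen deficient, 44.9 and 76.9 in lung controls and 10.6 and 18.2 in lung deficient libraries. The member 19043 bases from the start (chr1:131000392-131000802) had 7.31 and 6.82 CPM in spleen controls against 2.20 to 4.73, and 16.6 and 29.4 in lung controls against 3.41 and 4.02. This site, the second sequence above, had a ratio of 6.19 in the lung and 2.05 in the spleen. The intronic member (chr1:131021475-131021855) had 10.6 and 12.1 CPM in spleen controls against 2.45 to 3.88, and 15.1 and 22.7 in lung controls against 4.39 and 4.45. The other 6 peaks of the stretch had control-to-deficient ratios of 0.939 to 1.53 in the spleen and 0.993 to 2.95 in the lung. One of these, chr1:131006109-131006430, stood at 4.25 against 4.52 CPM in the spleen and 7.10 against 7.16 in the lung, so that members and peaks with near-equal levels lay side by side.

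The next stretch ran over 5830473C10Rik and Rassf6, a gene of the Ras association domain family, on chromosome 5 from 90594923 to 90640857, with 4 members among 7 peaks. The member in an intron of Rassf6 (chr5:90611886-90612731) had 11.9 and 11.6 CPM in spleen controls, 3.16 to 5.14 in spleen deficient, 15.2 and 19.9 in lung controls and 3.57 and 4.87 in lung deficient libraries. Of the 4 members, 3 held an AP-1 match in the central 200 bases. The other 3 peaks were low, with control means of 0.839 to 3.04 CPM. On chromosome 18, 3 of 4 peaks in 12.7 kb of Impa2, which encodes an inositol monophosphatase, were members, and the fourth had ratios of 1.81 and 1.85. Several stretches held 3 members, and Impa2 was named as the shortest of them. Other stretches of 3 lay at Klrg1, Il1rl1, Atxn1, Itgb3 and Cited2.

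Few members lay at gene starts. Of the 595, 22 (3.70%) lay within 1 kb of the start of a protein-coding gene, against 17.9% of all peaks on chromosomes 1 to 19 and 31.4% of peaks at the control level of the rule. Introns held 319 (53.6%) and intergenic DNA 248 (41.7%), with 22 in untranslated exons and 6 in coding exons. The median distance to a start was 25480 bases, against 17380 for all peaks and 8852 for peaks at the control level, while the share over 50 kb from a start, 26.9%, was close to the 26.5% of all peaks. Members had a median width of 423 bases, between that of all peaks (328) and of peaks at the control level (506). They held a mean of 3.06 CpG sites in the central 200 bases, against 5.24 in all peaks and 7.78 at the control level. Peaks of the lung arm alone had 6.81% within 1 kb of a start and 3.38 CpG sites. The 122 of the spleen arm alone had 4.92% and 3.475.

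The 4 members at gene starts with the highest control level were those of Igsf9b, Zfp932, Dhrs9 and Ky. At Igsf9b (chr9:27298957-27299434), which encodes an adhesion molecule of the immunoglobulin family, levels were 36.9 and 34.7 CPM in spleen controls, 11.6 to 15.9 in spleen deficient, 46.5 and 46.7 in lung controls and 14.3 and 19.1 in lung deficient libraries. At Dhrs9 (chr2:69380282-69380708), which encodes a retinol dehydrogenase, they were 15.2 and 11.7 against 3.91 to 5.74 in the spleen and 16.6 and 19.1 against 3.41 and 5.71 in the lung. The peak at Zfp932, a zinc finger gene (chr5:109996113-109996691), was not alike among the deficient libraries. Its controls were at 36.8 and 36.9 CPM in the spleen and 41.3 and 34.1 in the lung, while the deficient libraries were at 0.417, 33.9, 0.451 and 0.431 in the spleen and 0.325 and 20.7 in the lung. Replicate 2 of either tissue was thus nearer to the controls than to 0 and the others were near 0, so the peak met the rule without a common level among the deficient libraries.

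The AP-1 motif was found in the central 200 bases of 26.7% of the members (159 of 595), against 9.95% of all peaks and 9.45% of peaks at the control level of the rule. Among peaks more than 1 kb from a start the share was 27.2% of members and 12.2% of peaks at the control level. Peaks that met only the lung arm of the rule had nearly the same share, 25.8% of 2466, and the 122 that met only the spleen arm had 20.5%. At least 2 AP-1 matches were found in 4.54% of members and 0.807% of all peaks. Matches gathered at the centre of the peaks. A match within 50 bases on the 3′ side of the centre was found in 10.4% of members against 3.14% of all peaks. From 350 to 400 bases away on the same side the share was 1.34% of members against 1.38% of all peaks. As far away on the other side it was 2.35% against 1.40%. The share differed with the window, as given in the closing section, and was above that of all peaks in each window searched.

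Other motifs were also more frequent in members than in all peaks, each searched on both strands of the central 200 bases. The RUNX motif was found in 17.0% of members against 8.23% of all peaks. The nuclear receptor element (AGGTCA) was found in 22.0% against 11.5%, the ETS motif (CAGGAAGT) in 10.4% against 6.22% and the MAF element (TGCTGAC) in 8.74% against 3.76%. The forkhead motif (TGTTTAC) was found in 6.39% against 2.82% and the T-box motif (AGGTGTGA) in 3.03% against 1.02%. The CRE motif (TGACGTCA) was found in 11 members (1.85%) against 0.662% of all peaks. Some motifs were rarer. The KLF/SP motif (GGGNGGGG) was found in 10.4% against 16.4%, the IRF motif (GAAANNGAA) in 4.20% against 7.64% and the NF-kB motif (GGANTTTCC) in 0.672% against 1.20%, while the CTCF motif (AGGGGGCGC) was in no member within this window and in 1.13% of all peaks. Over the whole peak, 4 members held it. Peaks that met only the lung arm of the rule had shares near those of the members for several motifs, with RUNX at 15.2%, the nuclear receptor element at 19.5%, ETS at 10.5% and the MAF element at 6.77%, so these shares were not particular to the members. The MAF element can overlap AP-1-like sequences, and 33 members (5.55%) held it without an AP-1 match. A match is a description of letters in a window of DNA.

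**Figure D3:**
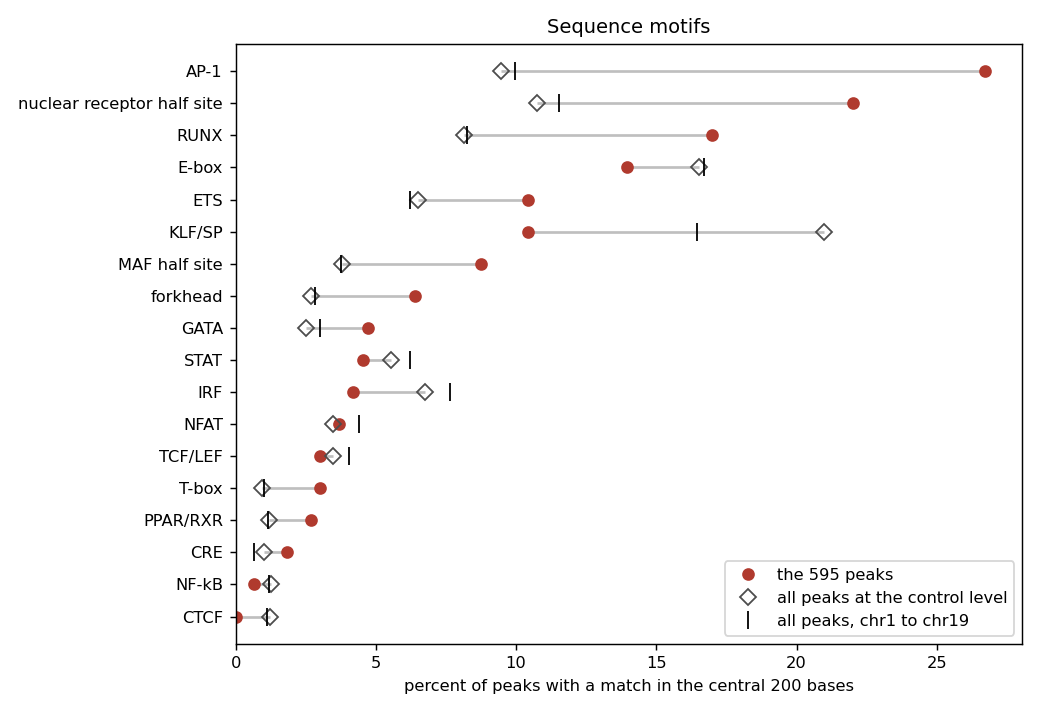
Percent of peaks with at least 1 match in the central 200 bases (x axis) for 18 motifs (rows), for the 595 peaks, for all peaks at the control level of the rule and for all peaks on chromosomes 1 to 19. AP-1 lies farthest from the other peaks, at 26.7% against 9.45% and 9.95%, and KLF/SP lies on the other side, at 10.4% against 16.4% of all peaks.

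**Figure D4:**
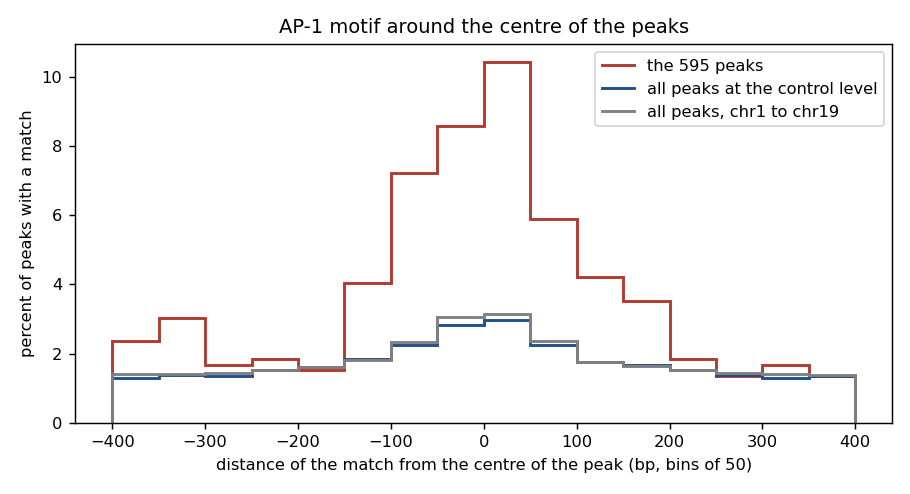
Percent of peaks with an AP-1 match (y axis) by distance from the centre of the peak (x axis, bins of 50 bases). In the 595 peaks the share rises to 10.4% just beside the centre, against 3.14% in all peaks on chromosomes 1 to 19. It falls to 1.34% in the outermost bin on the right and to 2.35% in that on the left.

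Members with and without the AP-1 motif had much the same ratios. All were chosen for a ratio of at least 2 in both tissues, which limits what this comparison can show. The median control-to-deficient ratio was 2.64 with and 2.60 without the motif in the spleen, and 3.54 and 3.45 in the lung. The median log2 difference between lung and spleen controls was 0.70 with and 0.65 without it. Of members with the motif 38.4% were called higher in lung controls, against 33.5% of those without.

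The rule compared no tissue with the other, but the levels that admitted the peaks are the ones compared here. The calls between tissues, made in the fit over all peaks, are therefore a description of the chosen peaks beside all others and no independent support. In control Tregs, 207 of the 595 peaks were called higher in the lung than in the spleen (34.8%) by edgeR, with a Benjamini-Hochberg threshold of 0.05 and a log2 difference of more than 0.5. Of all peaks tested 11.8% were called higher, and of peaks at the control level of the rule 8.62%. The log2 fold change was positive at 533 and negative at 62, with a median of 0.65 against 0.042 over all peaks tested. No member was called lower in lung controls, against 3.53% of all peaks tested, while 3 members were lower at an unadjusted p below 0.05 and DESeq2 called none. Every lung control was above every spleen control at 398 members (66.9%), against 28.4% of all peaks. The count of 207 was 47 without spleen control replicate 1 (7.90%, against 3.21% of all peaks tested), 115 without spleen control replicate 2 (19.3% against 6.86%) and 71 without lung control replicate 2 (11.9% against 10.2%), all of them among the 207. Without lung control 2 the share of members called higher was thus close to that of all peaks. The lung controls also differed between themselves, with lung control 2 above lung control 1 at 474 members and by a median log2 difference of 0.32, against −0.0082 over all peaks.

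In Vps34-deficient Tregs, whose levels at the members are low in both tissues by the rule, 89 of the 595 were called higher in the lung (15.0%), against 12.4% of all peaks tested, and 13 lower, against 4.72%. The share called higher was thus close to that of all peaks. The median log2 fold change was 0.29 against −0.028 over all peaks tested, with 396 positive and 199 negative. Of the 89 peaks, 68 were also among the 207 called in controls. Without lung Vps34-deficient replicate 2 the count of higher peaks was 39 (6.55%, against 7.20% of all peaks tested), and without lung Vps34-deficient replicate 1 the count of lower peaks was 4 (0.672% against 2.70%). The interaction term, the change of the tissue difference with genotype, was called by edgeR at no member and at no peak in all. At an unadjusted p below 0.05 there were 100 members (16.8%), against 7.28% of all peaks tested, and the smallest adjusted p among members was 0.295. The rule used all of the values in this term, so for the members it too is a description and no independent test.

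**Figure D5:**
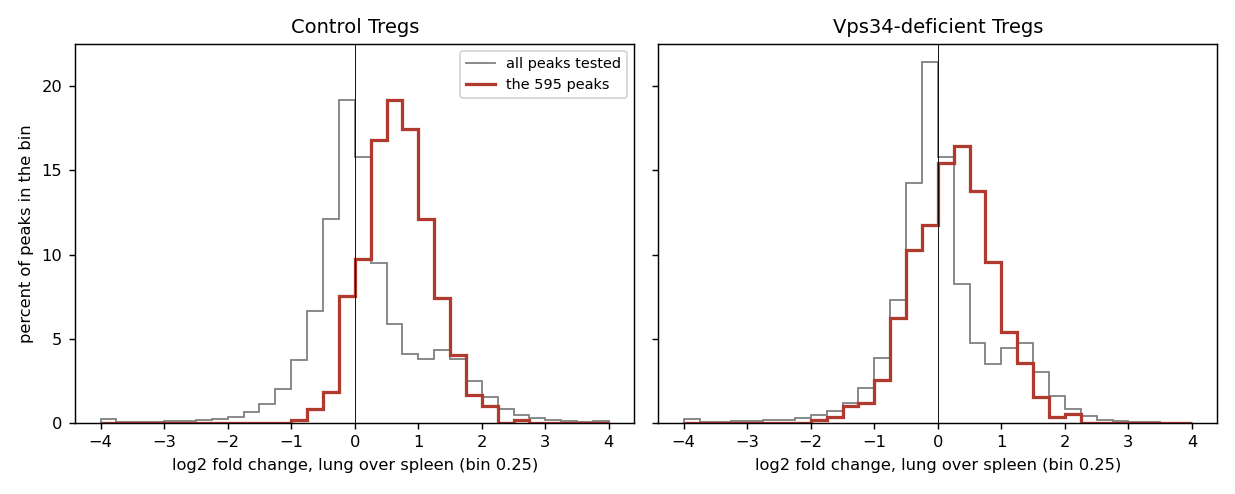
Distribution of the log2 fold change of lung over spleen (x axis, bins of 0.25, with values beyond 4 drawn in the outermost bins) as percent of peaks (y axis), in control Tregs (left) and Vps34-deficient Tregs (right). The 595 peaks (red) centre on 0.65 in controls and 0.29 in deficient Tregs, while all peaks tested (grey) centre near 0 in both.

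The clearest differences between tissues in controls were at an intron of Tex2, a coding exon of 9930021J03Rik and an intron of Hmgb1, which encodes a chromatin protein. The peak in Tex2 (chr11:106587805-106588515) had 14.6 and 16.5 CPM in spleen controls and 36.6 and 50.5 in lung controls, and was higher by 1.57 ± 0.18 on the log2 scale (SE, edgeR adjusted p = 2.6e-05). The peak in 9930021J03Rik (chr19:29717774-29718351) had 4.63 and 5.92 against 18.5 and 23.0 CPM, a difference of 2.07 ± 0.24 (SE, edgeR adjusted p = 2.7e-05). That in Hmgb1 (chr5:149160350-149161080) had 7.40 and 7.30 against 25.7 and 32.2 CPM, a difference of 2.06 ± 0.25 (SE, edgeR adjusted p = 3.22e-05). In the deficient lung libraries the same 3 peaks stood at 14.8 and 14.9, 8.28 and 6.14, and 6.01 and 4.66 CPM. They were thus at about the spleen control level at Tex2, above it at 9930021J03Rik and below it at Hmgb1.

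Of the peaks named for other reasons, the one near Ky was higher in lung controls by 2.55 ± 0.32 on the log2 scale (SE, edgeR adjusted p = 4.28e-05), and that in Pparg by 2.02 ± 0.33 (SE, edgeR adjusted p = 0.000248). The Il10 peak 19043 bases from the start was higher by 1.79 ± 0.28 (SE, edgeR adjusted p = 0.000145). These calls, and those at Tex2, 9930021J03Rik and Hmgb1, held with each library left out in turn. The Klrg1 peak was higher by 0.84 ± 0.23 (SE, edgeR adjusted p = 0.0135), but the call was lost without spleen control replicate 1 (0.70 ± 0.30, adjusted p = 0.176), without spleen control replicate 2 (0.81 ± 0.30, adjusted p = 0.0867) or without lung control replicate 2 (0.48 ± 0.27, adjusted p = 0.239). The difference itself was thus smaller mainly without lung control replicate 2. The Il1rl1 peak was higher by 1.53 ± 0.34 (SE, edgeR adjusted p = 0.00332), a call lost without spleen control replicate 1 (1.11 ± 0.42, adjusted p = 0.124) or lung control replicate 2 (0.83 ± 0.41, adjusted p = 0.177). At Ifng the log2 difference was −0.32 ± 0.40 (SE, edgeR adjusted p = 0.662).

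By the rule, controls were above deficient libraries in each tissue, which fixed part of the order of the 4 group means. That order was shared by most members. At 357 of the 595 it ran from lung controls over spleen controls and lung deficient to spleen deficient libraries, and at 154 the 2 deficient groups changed places. At 81 the spleen controls were highest, of which 65 had spleen deficient above lung deficient libraries.

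Promoter peaks were present at all 5 Treg marker genes and all 7 T cell marker genes. They were also found at 3 of 8 B cell, 3 of 8 myeloid and 3 of 8 lung epithelium markers. The same held for 2 of 6 endothelium and 5 of 8 CD8 and NK markers. A promoter peak alone thus does not identify the cells. No peak at a gene of these lists was a member (0 of 93 at Treg and 0 of 63 at T cell markers), nor at marker genes of B cells (0 of 43), myeloid cells (0 of 26), lung epithelium (0 of 21), endothelium (0 of 31) or CD8 and NK cells (0 of 26), and lists of this size hold few members or none at the share of 0.63%. The summed promoter level of the 8 myeloid markers did not overlap between genotypes. It was at 35.3 to 36.1 CPM in spleen controls against 25.4 to 29.7, and at 38.9 to 44.0 in lung controls against 24.6 to 26.5. These counts lay at Spi1, Cebpa and, at up to 1.81 CPM, Itgam, while Csf1r, Lyz2, Cd68, Adgre1 and Fcgr3 had no promoter peak. Lung epithelium markers were at 34.2 to 36.2 CPM in spleen controls and 29.0 to 33.8 in spleen deficient libraries. In the lung, T cell markers were at 128 to 142 CPM in controls and 111 to 125 in deficient libraries, and CD8 and NK markers at 40.4 to 40.6 and 44.8 to 49.1. B cell markers in the lung were at 22.3 to 24.8 and 21.3 to 21.4 CPM. Their part in the differences between genotypes was not tested.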

How the data were processed

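The authors trimmed 2 × 100-bp paired reads, aligned them with BWA, removed duplicates, shifted reads for the offset of the transposase, kept nucleosome-free fragments, called peaks per sample with MACS2, kept those found in 50% or more of the replicates of a genotype, merged them and counted reads per peak. The deposited values are these raw counts. Between 91.5% and 96.5% of the counts of a library are even, as would be seen if both reads of a pair had been counted, which was not tested. Counts would then overstate the number of molecules. The methods of the study name mm9, while the submitters' processing notes name mm10 and GRCm38. The starts of 52.3% of 20807 protein-coding genes of GRCm38 (GENCODE annotation) fell in peaks, against 2.87% and 2.75% after shifting them by 100000 bases, and GRCm38 was used.

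Members and lists were chosen with earlier results of these data known. CPM used library totals. Tests across peaks used edgeR 4.0.16 in R 4.3.3 (quasi-likelihood, TMM, filterByExpr), with 4 groups over all 10 libraries, or the libraries of 1 tissue where peaks were chosen in the other, and calls at an adjusted p below 0.05 and a log2 fold change beyond 0.5. DESeq2 1.42.0, other scalings and filters, halved counts (chosen after seeing the data) and leaving out each library were tried as alternatives. Peaks were named by rule: the 6 highest mean control-to-deficient ratios (pseudocount 0.5 CPM), the 5 highest control levels and the top member at up to 10 listed genes. Also named were 4 members at gene starts, the 3 stretches with most members and 2 peaks on either side of the threshold. The 3 peaks called with the smallest p in each direction between control tissues were named too (none was lower). Genes and stretches beyond the rule were named after their values were seen. Accessibility at Pik3c3 was not used to check the labels. Precision is limited by 2 libraries in most groups.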

Additional observations from a re-analysis of the deposited data

Results flagged for a closer look

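In the group of 4 spleen Vps34-deficient libraries, the highest or lowest library of a peak was compared with the others, and it stood apart by Dixon's test at 2 of the 39 peaks checked by name. At the start of Zfp932, spleen Vps34-deficient replicate 2 had 33.9 CPM while the other 3 libraries had 0.417, 0.431 and 0.451. At the Uvrag intron, replicate 4 had 2.15 CPM against 1.10 to 1.26 in the other 3, which is still below both spleen controls. Chance gives such a library in about 1 in 20 groups. Over the members a library stood apart at 22 of 595 (3.70%), against 5.07% of all peaks on chromosomes 1 to 19.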

How the results depend on the processing

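The ratio and the level in the rule moved the number of members. It was 1445 with a ratio of at least 1.5, 167 with at least 3, 249 with a control mean of at least 6 CPM and 1250 with at least 1 CPM. Under TMM factors, median-of-ratios factors or autosomal totals it was 593, 604 and 611, of which 585, 588 and 593 were among the 595. Leaving out each library gave 544 to 667 members. The peaks chosen in the spleen and called lower in the lung numbered 1 to 564 with each library left out (0.14% to 78.9% over the lung libraries, against 0.00106% to 5.03% of all peaks tested), and those chosen in the lung and called lower in the spleen 530 to 1117 (17.4% to 31.8% over the spleen libraries, against 0.794% to 1.76%). Members called higher in lung controls numbered 47 to 208 (7.90% to 35.0%, against 3.21% to 11.4% of all peaks tested) and members called lower 0 to 2 (against 1.67% to 4.61%). In deficient Tregs 39 to 111 were called higher (6.55% to 18.7%, against 7.20% to 14.4%) and 4 to 16 lower (0.672% to 2.69%, against 2.18% to 5.92%). The calls over all peaks thus moved as well. A fit that leaves out a library can leave a group with 1 sample, whose spread is then assumed to be that of the other groups.

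Members called lower in lung controls numbered 1 with library size alone, with no filter, with at least 10 counts in a group or with control libraries alone (the peak near Rpia), and 2 with halved counts (Rpia and Kif20b), and the cause was not tested. DESeq2 called 177 members higher in lung controls (29.8%, against 11.0% of all peaks tested) and 86 in deficient libraries (14.5% against 11.9%). It called 418 of 697 spleen-chosen peaks lower in the lung (against 1.89% of all) and 880 of 3026 lung-chosen peaks lower in the spleen (against 1.57%). The share within 2 kb of a start was 6.22%, and 10.6% with the starts of all gene types. The AP-1 share was 17.3% in the central 100 bases, 32.9% in the central 300 and 39.2% in the whole peak, as wider windows hold more letters.

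Correlations of same-numbered deviations between tissues ran from −0.012 to 0.037, so the numbers were not used as pairs, but the chromosome Y levels given below leave it unknown whether same-numbered libraries came from the same mice. A replicate block gave libraries of the same number a common effect across both genotypes, so it is no pairing by mouse. In the fits of 1 tissue it joined only control with deficient libraries. With the block, 173 members were called higher (29.1%, against 9.35% of all peaks tested) and 0 lower (against 2.37%) in lung controls. In deficient Tregs 40 were higher (6.72% against 5.18%) and 3 lower (0.504% against 1.77%). Of the spleen-chosen peaks 494 were lower in the lung (69.3%, against 2.24% of all). Of the lung-chosen peaks 902 were lower in the spleen (29.8% against 1.78%). Of the tissue differences of named peaks under the alternatives, 497 kept their direction and call, 40 lost the call, 3 gained it and 6 changed sign, none of them called in the fit over all libraries. The sign changes were at Ifng (0.045 without spleen control replicate 2, in a range from −0.75), at Zfp932 (−0.0003 without spleen control replicate 1 and −0.11 without lung control replicate 1, in a range up to 0.14) and at 2 Impa2 peaks (−0.030 and −0.033 without spleen control replicate 1, and −0.32 without lung control replicate 2, in ranges up to 0.12 and 0.49).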

Other observations

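The 595 peaks lie on chromosomes 1 to 19, yet the 11 peaks on chromosome Y separate the libraries within each group, and none by genotype. Their summed level was 56.9 CPM in spleen control 1, 67.6 in lung control 1, 64.8 and 58.2 in spleen Vps34-deficient replicates 2 and 4, and 63.4 in lung Vps34-deficient replicate 2. In the other 5 libraries it was 7.03 to 21.4 CPM. Each group thus held as many libraries with a high as with a low chromosome Y level, and in all numbers shared by the tissues the spleen and lung library of a genotype fell on the same side.

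The peak at Zfp932 was 1 of 3 peaks on chromosomes 1 to 19 that had at least 10 CPM in one spleen Vps34-deficient library and at most 1 CPM in another, and all 3 lay on chromosome 5. The second, 8.76 Mb away in an intron of Med13l, was no member. It had 15.2 and 13.8 CPM in spleen controls and 14.9 and 13.8 in lung controls, against 0.139, 13.9, 1.26 and 1.44 in spleen and 1.14 and 5.08 in lung deficient libraries, so that replicate 2 of either tissue was again the highest deficient library. The third, in an intron of Ift81, ran the other way in spleen deficient libraries, with 0.612 CPM in replicate 2 and 6.26 to 11.6 in the other 3. These 3 peaks were picked after their values were seen.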
